A study of Rattus norvegicus with 24 samples.

Results

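The core genes of the circadian clock, Per1, Per2, Per3, Cry1, Cry2, Arntl, Clock, Nr1d1, Nr1d2 and Dbp, were followed in messenger RNA libraries of 2 brain regions of injured and sham-operated rats. The members were chosen by gene name: 10 of the 26641 named loci in a deposited table of 42334 loci. Of the 10, 8 matched the name as written, while Arntl and Nr1d2 stand in capitals in the file. Each name had 1 locus.

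The animals were adult male Sprague-Dawley rats. The TBI rats had a lateral fluid-percussion injury, in which a pressure pulse on the exposed dura injures the cortex beneath and, over time, the thalamus connected to it. Per the paper, the sequenced TBI rats were selected for chronic inflammation, with MRI used to find it around the lesion. They do not stand for all injured rats. The sham-operated rats had the surgery without the pulse. At 3 months after surgery the perilesional cortex and the ipsilateral thalamus were dissected from 1 brain slice of each rat, which gave 24 libraries from 12 rats: TBI cortex, sham cortex, TBI thalamus and sham thalamus, 6 libraries each. Both regions of a rat carry its number. The rats lived under a fixed light-dark cycle. The hour at which each rat was killed is not given in the sources used here, and the clock genes change with the hour, so a difference between groups and a difference in the hour of killing cannot be told apart. The tissue was bulk tissue, so fewer cells of a type and less RNA per cell cannot be told apart either.

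In the clock, the proteins of Arntl (BMAL1) and Clock form a dimer that binds E-boxes and switches on the Per and Cry genes. The PER and CRY proteins then enter the nucleus and repress that dimer, which closes the loop over a day. Nr1d1 and Nr1d2 encode REV-ERB alpha and beta, nuclear receptors that are themselves driven through E-boxes and repress Arntl through ROR elements. Dbp encodes a bZIP activator that carries the rhythm to output genes through D-boxes. Arntl RNA peaks at about the opposite time of day to Dbp, Nr1d1 and the Per genes, and brain regions outside the suprachiasmatic nucleus hold clocks of their own. Per1 is also switched on by neuronal activity and by glucocorticoids.

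The sequence upstream of the members was searched for elements of these loops. RefSeq (build GRCr8) gave promoter windows for 9 of the 10 members, 11 windows in all, and Cry1 had no entry. The 250 bases before each start were searched on both strands for the E-box CACGTG, the D-boxes TTATGTAA and TTACGTAA, the ROR element core TAGGTCA and the cAMP response element TGACGTCA. Of the 11 windows, 3 held a match, and these are shown. The matches were a D-box upstream of Per2, a ROR element core upstream of Arntl, and an E-box upstream of a start of Nr1d1. No window of Per1, Per2, Per3, Cry2 or Dbp held the exact E-box CACGTG. Only exact matches were searched for, so variants of these elements, present or absent, are not marked. Capitals mark the match. The Per2 window is chr9:99496994-99497243 on the minus strand with the match beginning at position -192 from the start. The Arntl window is chr1:176766078-176766327 on the plus strand with the match at -16. The Nr1d1 window is chr10:84229455-84229704 on the minus strand with the match at -191.
Per2: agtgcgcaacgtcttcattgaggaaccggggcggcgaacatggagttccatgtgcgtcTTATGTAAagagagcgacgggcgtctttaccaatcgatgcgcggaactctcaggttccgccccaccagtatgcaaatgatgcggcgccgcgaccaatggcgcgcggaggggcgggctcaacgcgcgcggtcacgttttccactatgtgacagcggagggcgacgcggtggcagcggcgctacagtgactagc
Arntl: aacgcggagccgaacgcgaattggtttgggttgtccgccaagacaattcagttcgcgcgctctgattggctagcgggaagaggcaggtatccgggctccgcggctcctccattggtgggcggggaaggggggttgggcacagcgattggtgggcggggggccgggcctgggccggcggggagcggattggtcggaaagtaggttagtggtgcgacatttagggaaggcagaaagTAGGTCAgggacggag
Nr1d1: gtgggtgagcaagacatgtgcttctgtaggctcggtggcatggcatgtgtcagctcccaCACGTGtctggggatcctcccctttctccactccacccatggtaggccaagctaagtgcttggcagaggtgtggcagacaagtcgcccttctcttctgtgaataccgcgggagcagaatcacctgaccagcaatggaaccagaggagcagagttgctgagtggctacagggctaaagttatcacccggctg
Among all 33469 promoter windows of the same length, 5.593% held the E-box, 0.8276% TTATGTAA, 0.1076% TTACGTAA, 2.256% the ROR element core and 1.587% the cAMP response element. A match is a description of these letters and is no measured binding site.

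Values are normalized counts: the authors scaled the fragments counted at a locus by the size factor of the library. The libraries held 30568927 to 54608922 fragments. No member came near the limit of detection: the lowest value of any member in any library was 408 normalized counts, for Cry1, against 2.06 to 3.76 for 3 fragments. Differences were tested by limma on log2(normalized count + 1) across all named loci with a mean of at least 10, and a locus was called at a Benjamini-Hochberg adjusted p under 0.05. Log2 fold changes below are on that scale, and levels of different genes are not compared, because the values are not per length. The labelled tissues held their markers: the summed level of 5 cortex identity genes was 11328 to 17360 in cortex libraries and 218 to 527 in thalamus libraries, and that of 6 thalamus identity genes was 1995 to 3459 in cortex and 47141 to 96334 in thalamus. Gbx2 was the 1 gene of these lists at or under 3 fragments in a whole group, the sham cortex.

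In the thalamus, TBI rats had less Cry2 and Nr1d1 than sham-operated rats, and the remaining 8 members did not pass the test. Cry2, a repressor of the BMAL1-CLOCK dimer, ranged from 6503 to 7173 normalized counts in sham thalamus with a median of 6783, and from 4855 to 5906 in TBI thalamus with a median of 5760. The groups did not overlap: every TBI rat lay below every sham-operated rat. The mean was 5615 ± 395 in TBI against 6828 ± 247 in sham-operated rats (SD, n = 6 each), a log2 fold change of -0.28 (SE 0.051), which is 0.821-fold. limma gave Cry2 a Benjamini-Hochberg adjusted p of 0.000688.

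Nr1d1, the REV-ERB alpha gene, ranged from 4714 to 5417 normalized counts in sham thalamus (median 5067) and from 3740 to 4502 in TBI thalamus (median 4283). Again all 6 TBI rats lay below all 6 sham-operated rats. The mean was 4189 ± 280 against 5060 ± 312 (SD, n = 6 each), a log2 fold change of -0.27 (SE 0.055), with an adjusted p of 0.00163 by limma and the Benjamini-Hochberg method. The Nr1d1 locus (chr10:86453516-86487159 as the files list it, naming no build; the labels name Rnor_5.0, and the methods RGSC3.4 as genome and Rnor_5.0 for annotation) overlaps that of Thra, a thyroid hormone receptor gene, and the files do not say whether counting used the strand. Thra itself averaged 8152 normalized counts in TBI thalamus against 7549 in sham thalamus. In the cortex Thra averaged 14899.8 in TBI against 13360.5 in sham-operated rats, above both thalamus groups. The part of Thra in the Nr1d1 values of either region, and in the differences of Nr1d1 between the regions, was not tested. The loci of Arntl, Clock and Dbp likewise overlap those of Btbd10, Tmem165 and Sphk2.

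**Figure D1:**
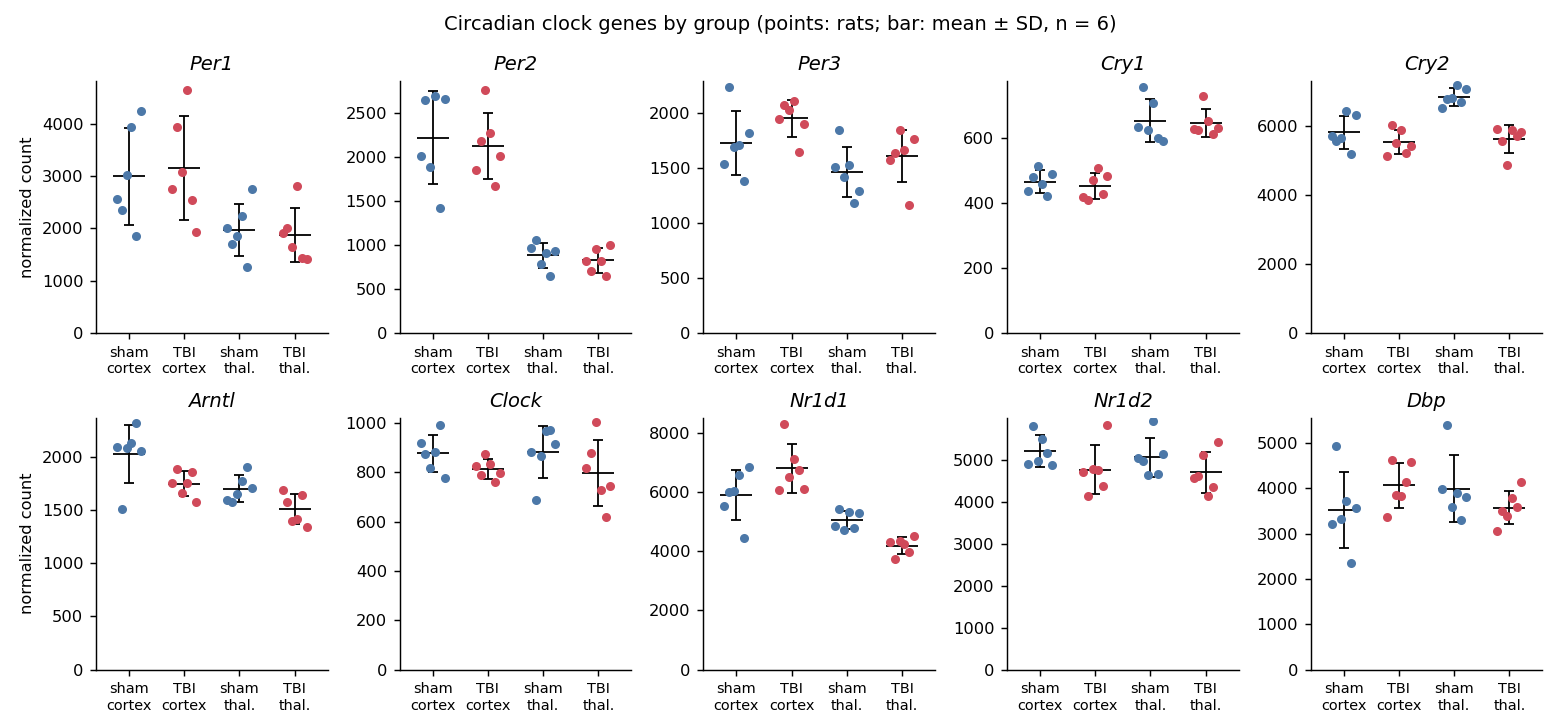
Normalized counts of the 10 members (vertical axes, from 0) in sham cortex, TBI cortex, sham thalamus and TBI thalamus. Points are rats and bars are the mean ± SD of 6 rats; in Cry2 and Nr1d1 the 6 TBI thalamus points all lie below the 6 sham thalamus points.

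These 2 members of 10 are to be read against the background of the region. Among 15564 loci tested in the thalamus, 20.9% were called lower and 14.5% higher in TBI, and in 18.2% the groups did not overlap in either direction. So 2 lower members of 10 is near the share of all loci, and no member was called higher. With TMM scaling of the same values the split of all calls moved from 2259 higher and 3257 lower to 2796 higher and 2357 lower, and Cry2 and Nr1d1 stayed called. Over the 10 members the median log2 fold change was -0.13, against -0.023 over all loci, and 9 of 10 values were below 0. Cry1 was 1 of those 9, at -0.012, and lay above 0 under TMM scaling.

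Markers of cell types moved in the same tissue. Of 14 neuron markers, 12 were called lower in TBI thalamus, with a median log2 fold change of -0.48, and their summed level was 240334 to 305799 in TBI against 356426 to 419807 in sham-operated rats. All 12 microglia and macrophage markers were called higher there (sum 30369 to 39788 against 14547 to 19171), as were 5 of 9 astrocyte markers (sum 404328 to 465044 against 283942 to 315993). The part of these shifts in the values of Cry2 and Nr1d1 was not tested. The library of TBI rat 45 held the lowest Cry2 value of its group and also the most choroid plexus RNA, a summed level of 260044 against a group median of 1553. Leaving out any 1 library kept Cry2 between -0.30 and -0.24 and Nr1d1 between -0.29 and -0.24, each called every time.

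Of the other members in the thalamus, Arntl came closest to the threshold. Its level was 1345 to 1685 normalized counts in TBI (median 1495) and 1571 to 1905 in sham-operated rats (median 1679), so the groups overlapped, with 3 TBI rats below every sham-operated rat. The log2 fold change was -0.17 (SE 0.068) with a Benjamini-Hochberg adjusted p of 0.0617 in limma. Arntl became called without sham rat 32 (adjusted p 0.0457 in limma), without TBI rat 22 (0.0336) or without TBI rat 56 (0.0425). Clock, its partner, was 798 ± 133 in TBI against 882 ± 105 in sham thalamus (SD, n = 6 each), with a 95% interval of the log2 fold change from -0.39 to 0.087. Dbp was 3578 ± 361 against 3998 ± 733, with an interval from -0.37 to 0.070, and Nr1d2, the REV-ERB beta gene, was 4699 ± 484 against 5053 ± 466, from -0.26 to 0.051. The Per genes had the widest intervals: Per1 from -0.47 to 0.32, Per2 from -0.37 to 0.18 and Per3 from -0.11 to 0.38. Cry1, at 646 ± 42.5 against 653 ± 66.2, had an interval from -0.17 to 0.14.

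In the perilesional cortex none of the 10 members was called by limma. At an unadjusted p under 0.05 there were 2, Arntl and Nr1d1, and edgeR on the recovered fragments called 0. Of all 15493 loci tested there, 14.3% were called higher and 14.9% lower in TBI, and in 12.5% the groups did not overlap. No member was among the loci without overlap. The median log2 fold change of the members was -0.043, against -0.010 over all loci, and the members ranged from -0.21 for Arntl to 0.23 for Dbp.

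Arntl in the cortex was 1580 to 1886 normalized counts in TBI rats (median 1750) and 1506 to 2318 in sham-operated rats (median 2083). The Arntl locus overlaps that of Btbd10, which averaged 2534 normalized counts in TBI cortex against 3142 in sham cortex, and 1619 against 1699 in the thalamus; its part in the Arntl values was not tested. A single sham-operated rat, number 32, lay below all TBI rats, and the other 5 lay above all of them. The log2 fold change was -0.21 (SE 0.086), with a 95% interval from -0.39 to -0.022 and a Benjamini-Hochberg adjusted p of 0.0850 in limma. Nr1d1 was 6062 to 8281 in TBI rats (median 6624) against 4450 to 6838 in sham-operated rats (median 6007). The groups overlapped, with 2 TBI rats above every sham-operated rat, and the log2 fold change of 0.21 had an adjusted p of 0.118 in limma with the Benjamini-Hochberg method.

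Dbp spanned 3359 to 4635 normalized counts in TBI cortex (median 3996) and 2359 to 4930 in sham cortex (median 3437), so the sham range enclosed the TBI range. limma put its log2 fold change at 0.23 (Benjamini-Hochberg adjusted p 0.200). Per3 was 1947 ± 167 in TBI against 1725 ± 292 in sham-operated rats (SD, n = 6 each), and again the sham range, 1377 to 2232, enclosed the TBI range. Of the 6 TBI rats, 5 had less Nr1d2 than every sham-operated rat, and TBI rat 63, at 5817, had more than any of them; the log2 fold change was -0.13 with an adjusted p of 0.185 in the same limma fit.

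The cortex count changed without either of 2 libraries. Without the sham cortex library of rat 32, limma called 3 members: Arntl (-0.29, Benjamini-Hochberg adjusted p 0.00232), Per3 (0.26, adjusted p 0.0228) and Dbp (0.34, adjusted p 0.0351). Without the TBI cortex library of rat 63 it called 1, Nr1d2 (-0.19, adjusted p 0.0200). The remaining members had smaller values. Per1, induced by activity as well as by the clock, was 3148 ± 988 against 2991 ± 931 with an interval of the log2 fold change from -0.38 to 0.53. Per2 ran from -0.37 to 0.28, Cry1 from -0.20 to 0.11, Cry2 from -0.20 to 0.056 and Clock from -0.24 to 0.030. In the same cortex libraries 11 of 14 neuron markers were called lower and 11 of 12 microglia and macrophage markers higher, and their part in these values was not tested.

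**Figure D2:**
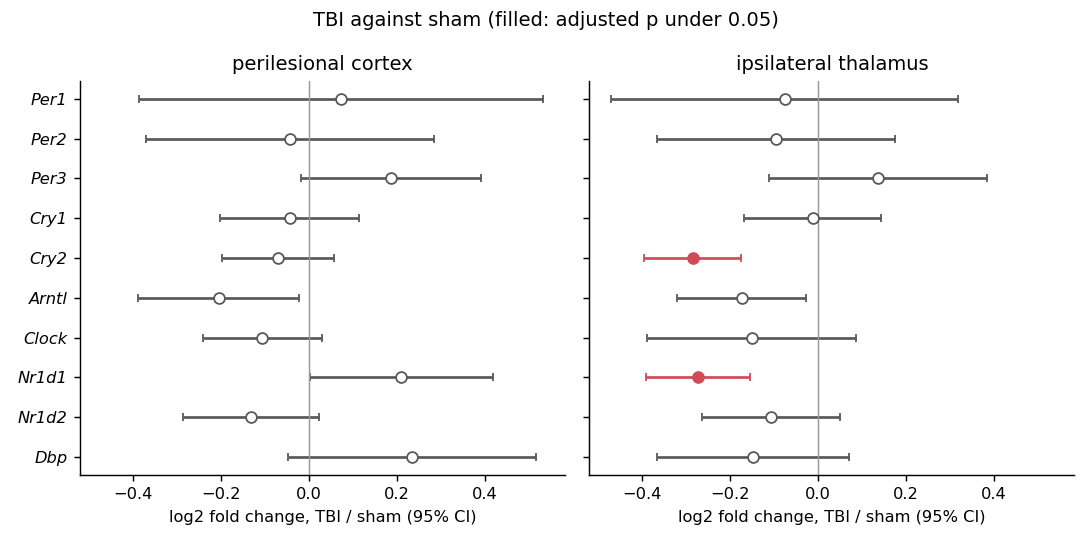
Log2 fold change of TBI over sham-operated rats (horizontal axis) with its 95% confidence interval for each member, in the perilesional cortex (left) and the ipsilateral thalamus (right); filled points passed the adjusted p. Cry2 (-0.28) and Nr1d1 (-0.27) in the thalamus are the filled points.

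Nr1d1 was the 1 member whose TBI effect differed between the regions. Its log2 fold change was 0.21 in the cortex and -0.27 in the thalamus. The interaction over all 24 libraries was -0.48 (SE 0.118), with a Benjamini-Hochberg adjusted p of 0.0134 in limma. Over 15678 loci, 2.72% had a higher and 4.54% a lower TBI effect in the thalamus (427 and 711 loci, against 566 and 524 with edgeR and TMM scaling). Leaving out any 1 library kept the Nr1d1 difference between -0.53 and -0.40 with adjusted p from 0.00736 to 0.0276 in limma. Dbp had values of 0.23 and -0.15 in the same direction, and its difference of -0.38 had an adjusted p of 0.209 without a block for the rat; with the rat as a block the adjusted p in limma was 0.0103, which made 2 called members. The Cry2 difference was -0.21 with an adjusted p of 0.0958 in limma, so Cry2 was not shown to respond differently in the 2 regions. For the other 7 members the difference lay between -0.15 and 0.032, with adjusted p of at least 0.825.

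Between the regions of sham-operated rats, limma called 4 members lower and 2 higher in thalamus than in cortex. Of all 15582 loci 28.3% were lower and 33.9% higher, so 6 called members of 10 is near the share of all loci. Per2 had the widest gap: 648 to 1055 normalized counts in sham thalamus (median 922) and 1419 to 2704 in sham cortex (median 2331), without overlap. Its log2 fold change was -1.31 (SE 0.155, Benjamini-Hochberg adjusted p 2.12e-06 in limma). Per1 followed at -0.59, then Arntl at -0.24, and Nr1d1 stood at -0.21 with an adjusted p of 0.0421 in limma. The Cry genes went the other way, Cry1 at 0.48 and Cry2 at 0.24, with no overlap between the regions for either. Per3, Clock, Nr1d2 and Dbp were not called; with the rat as a block Per3 (adjusted p 0.00607) and Dbp (0.0132) were called too in limma, 8 in all.

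In TBI rats 5 members were called lower and 1 higher in thalamus, against 26.5% and 31.0% of 15737 loci, again near the share of all loci. Per2 was again lower (-1.36), and so were Per1 (-0.73), Nr1d1 (-0.69), Per3 (-0.29) and Arntl (-0.21), while Cry1 was higher (0.51). Nr1d1 did not overlap between the regions of TBI rats, at 3740 to 4502 in thalamus and 6062 to 8281 in cortex. Cry2 stood at 0.023 with an interval from -0.10 to 0.15. Dbp at -0.18 had an adjusted p of 0.0816 in limma, and of 0.0152 with the rat as a block. The sham call of Nr1d1 was lost on leaving out any of 7 libraries, with adjusted p in limma up to 0.101. The sham call of Arntl was lost without the cortex library of rat 50 (adjusted p 0.0527 in limma).

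Put in order of their means, Nr1d1 ran from TBI cortex (6803) through sham cortex (5903) and sham thalamus (5060) to TBI thalamus (4189). The third pair of neighbours was called under every alternative run. The first pair (0.21, 95% interval 0.0027 to 0.42) was not called, and the second (-0.21) was called but lost its call without any of 7 libraries, as above, and with no filter on low values (adjusted p 0.0515 in limma). Cry2 ran from sham thalamus (6828) through sham cortex (5803) and TBI thalamus (5615) to TBI cortex (5523), and of the neighbours that share a region or a treatment only the first pair was called. Per2 and Cry1 were ordered by region alone: within a region no difference between TBI and sham-operated rats was called. Clock and Nr1d2 had no called pair in any of the 4 comparisons between groups, and their ranges overlapped throughout.

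Rats of 1 group differed from each other by more in some members than in others. The pooled SD between rats of a group was 0.45 on the log2 scale for Per1 in the cortex, and 1.37% of 13259 loci had an SD as large. Per2 (0.32, 5.29% of loci) and Dbp (0.27, 8.91%) followed in the cortex. In the thalamus the SD of Per1 was 0.37 (5.46% of loci). At the other end lay Clock in the cortex, with an SD of 0.10 (69.6% of loci as large), and Cry2 in the thalamus, with 0.084 (84.9% of loci as large). The median SD over those loci was 0.13 and 0.14 in cortex and thalamus.

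For several members a rat that was high in one region was high in the other. Deviations from the group mean were compared between the regions over the 12 rats, 10 relations in all, with a two-sided permutation test that pairs rats anew within TBI and within sham and with unadjusted p. In 5 of 10 the p of Pearson's r was under 0.05. Of the 10 r, 9 were above 0, as were 65.8% of those over 15123 loci. Over these loci the median r was 0.14, and 4.58% had an r of at least 0.7. Among the members Per1, Per2, Per3 and Dbp did. The loci had a mean of at least 10 in both regions, whereas no member value was under 408. The share among loci of like level or spread between rats was not taken. A rat's 2 samples share the animal, the hour and the slice, and the parts of each in r were not tested.

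Per1 had the closest relation, with r = 0.91 and rho = 0.93 (permutation p = 0.0002 and 0.0001). Without the 2 rats farthest from the cortex median r was 0.86. Within the 6 TBI rats r was 0.89 (exact permutation p = 0.0208) and within the 6 sham-operated rats 0.94 (exact permutation p = 0.0056). TBI rat 52 and sham rat 55 were highest of their groups in both regions, at 4644 and 4240 normalized counts in cortex and 2804 and 2741 in thalamus. Sham rat 50 and TBI rat 63 were the lowest of their groups in both, at 1853 and 1933 in cortex and 1263 and 1411 in thalamus.

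Dbp had r = 0.85 (permutation p = 0.0046) and rho = 0.60 (p = 0.0521 by permutation). Its r was 0.61 without the 2 farthest rats, so part of it rests on sham rats 32 and 50, at 4930 and 2359 in cortex. Within TBI rats r was 0.70 (exact permutation p = 0.121) and within sham-operated rats 0.90 (exact permutation p = 0.0347). Per3 had r = 0.75 and rho = 0.46 (permutation p = 0.0082 and 0.153), and 0.52 without the 2 farthest rats; its p passed 0.05 without rat 32 (r = 0.62, permutation p = 0.0522) or rat 56 (r = 0.68, permutation p = 0.0878). Per2 had r = 0.72 and rho = 0.62 (permutation p = 0.0116 and 0.0463), and without rat 50 r = 0.54 (permutation p = 0.107). Arntl had r = 0.65 and rho = 0.77 (permutation p = 0.0136 and 0.0066), and 0.63 without the 2 farthest rats. Within TBI and within sham-operated rats alone, Per2 had 0.55 and 0.85, Per3 0.82 and 0.76 and Arntl 0.76 and 0.71.

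For the remaining 5 members the p was above 0.05. Nr1d2 had r = 0.54 and rho = 0.38, Clock 0.39 and 0.31, Cry1 0.25 and 0.24, Cry2 0.19 and 0.091. Clock and Nr1d2 passed without rat 32 (r = 0.48 and 0.61, permutation p = 0.0392 and 0.0495). Nr1d1 had r = -0.046 and rho = -0.084 (permutation p = 0.892 and 0.807). Its r was -0.87 within the 6 TBI rats (exact permutation p = 0.025) and 0.64 within the 6 sham-operated rats (exact permutation p = 0.172). TBI rat 24 had the highest Nr1d1 of its group in the cortex, 8281, and the lowest in the thalamus, 3740. Whether the relations of the groups differ was not tested.

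**Figure D3:**
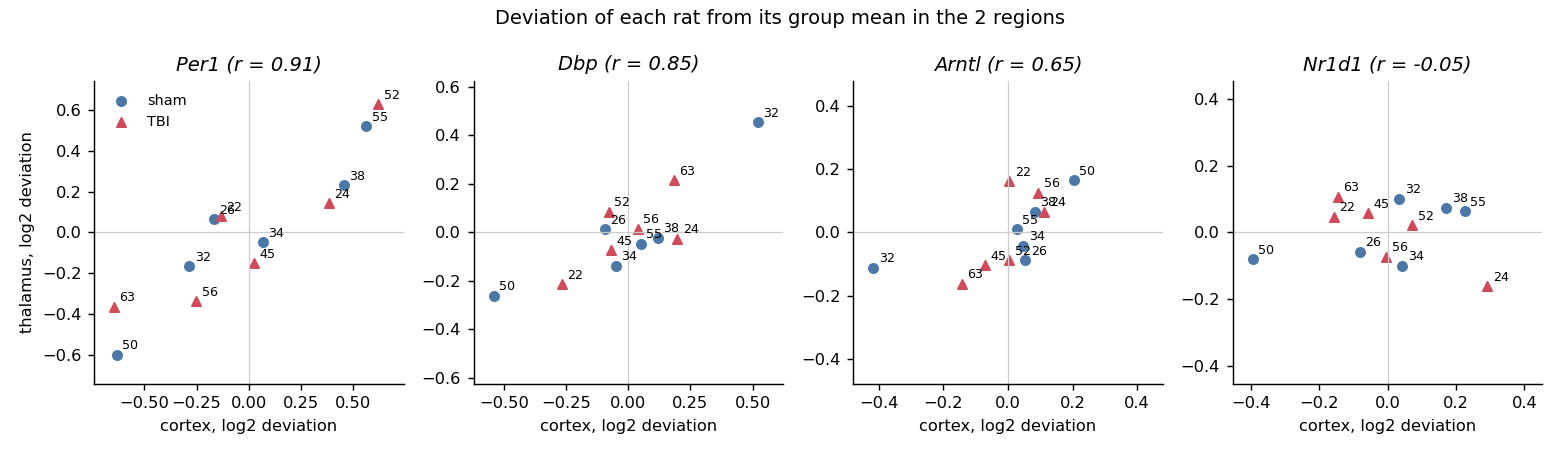
Log2 deviation of each rat from its group mean in the cortex (horizontal) and the thalamus (vertical) for Per1, Dbp, Arntl and Nr1d1; circles are sham-operated and triangles TBI rats, with rat numbers. Per1 runs along the diagonal (r = 0.91), whereas Nr1d1 does not (r = -0.046).

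Because Arntl and its targets peak at opposite times in the textbook clock, each other member was also set against Arntl over the 12 rats of a region, 18 relations with unadjusted permutation p. Of these, 13 had an r below 0 and 5 passed 0.05. The share of all loci with such relations to Arntl was not taken. The 18 relations share rats and Arntl values, so they are not independent, and their counts are a description only. In the cortex the 2 were Per3 (r = -0.77, rho = -0.52, permutation p = 0.0195 and 0.0898) and Nr1d2 (r = -0.65, rho = -0.65, permutation p = 0.0047 and 0.0311). In the thalamus they were Per2 (r = -0.78, rho = -0.82, permutation p = 0.0065 and 0.0034), Per3 (r = -0.71, rho = -0.77, permutation p = 0.0075 and 0.0069) and Dbp (r = -0.66, rho = -0.63, permutation p = 0.0155 and 0.0394). Dbp in the cortex had r = -0.71 and rho = -0.25 (permutation p = 0.0514 and 0.447), and was -0.28 without the 2 rats farthest from the median of Arntl. It passed with TMM scaling (r = -0.77, permutation p = 0.0281) and without rat 22, 24, 38, 45 or 56, and leaving out each rat moved r from -0.81 to -0.36 (without rat 32, permutation p = 0.265). Nr1d1, although a target of the same dimer, had r = -0.061 in the cortex and -0.41 in the thalamus, with a permutation p of 0.855 and 0.211.

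Some of these relations changed with the rats included. Without the 2 rats farthest from the median of Arntl, r in the cortex was -0.66 for Per3 and -0.24 for Nr1d2, and in the thalamus -0.81 for Per2, -0.73 for Per3 and -0.46 for Dbp. Per3 in the cortex no longer passed without rat 32 (r = -0.43, permutation p = 0.202) or rat 50 (r = -0.70, permutation p = 0.0760), nor Per2 in the thalamus without rat 50 (r = -0.70, permutation p = 0.0516). Cry1 in the cortex (r = -0.45) passed without rat 32 (r = -0.69, permutation p = 0.0353) or rat 34 (r = -0.54, permutation p = 0.0419). Within sham-operated rats r in the cortex was -0.92 for Per3 (exact permutation p = 0.0111) and -0.67 for Nr1d2 (exact permutation p = 0.131). Within TBI rats it was -0.17 (exact permutation p = 0.768) and -0.94 (exact permutation p = 0.0014). In the thalamus the TBI and sham values were -0.77 and -0.80 for Per2, -0.69 and -0.76 for Per3, and -0.70 and -0.72 for Dbp.

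A pair of sham-operated rats stood at opposite ends. Rat 32 had the highest Dbp and Per3 deviations of all 12 rats in both regions (0.52 and 0.39 on the log2 scale in cortex, 0.45 and 0.35 in thalamus), the lowest Arntl deviation in cortex (-0.42) and the second lowest in thalamus (-0.11). Rat 50 had the lowest Dbp and Per2 in both regions (-0.54 and -0.61 in cortex, -0.26 and -0.43 in thalamus) and the highest Arntl in both (0.20 and 0.17). In Per1 rat 32 did not mirror rat 50: both lay below their group mean in both regions. The thalamus library of rat 50 had the highest summed choroid plexus markers of the sham group, 107356 against a median of 1274. Rat 32 had the lowest summed activity-regulated genes of the sham group, 15323 (median 38374) in cortex and 5275 (median 9736) in thalamus. The part of these in the deviations was not tested.

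**Figure D4:**
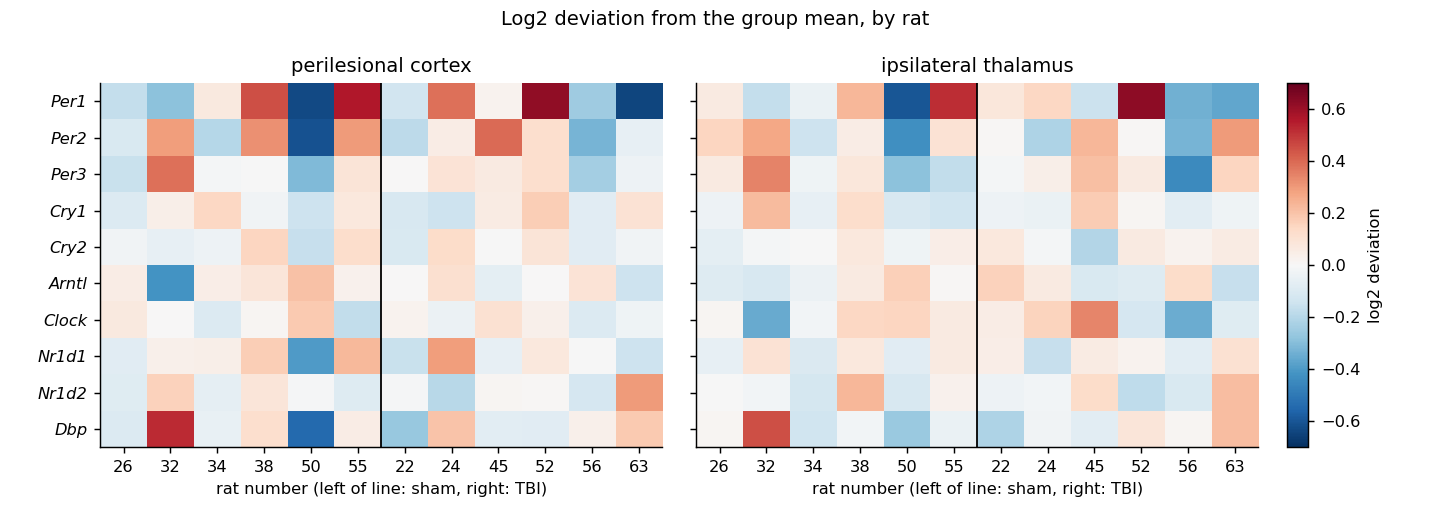
Log2 deviation from the group mean (colour, red above and blue below) of the 10 members (rows) in each rat (columns; left of the line sham-operated, right TBI), in cortex and thalamus. Rat 32 is red in Per3 and Dbp and blue in Arntl in both regions, and rat 50 the reverse.

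Per1 was set against Fos, an immediate early gene of neuronal activity, and Fkbp5, a glucocorticoid-induced gene, over the 12 rats of each region. None of these 4 relations passed on Pearson's r. With Fos, r was 0.52 in the cortex and 0.48 in the thalamus (permutation p = 0.102 and 0.144), and rho was 0.55 and 0.60 (permutation p = 0.0854 and 0.0487). Without the 2 rats farthest from the median of Per1 r was 0.34 and 0.60, within TBI rats 0.81 and 0.78, and within sham-operated rats 0.32 and 0.31. Without sham rat 50, r with Fos rose to 0.79 and 0.68 (permutation p = 0.0078 and 0.0174). With Fkbp5, r was 0.11 and -0.032 (permutation p = 0.743 and 0.924), and rho was -0.042 and -0.0070.

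Among 13259 named loci, those most like Arntl in their deviations over the 24 libraries were Abca8b (r = 0.89), Dhx32 (0.80), Tnfaip1 (0.80), Ercc6 (0.78) and Fam5c (0.77). Those least like it were Plekhg5 (-0.78), Sox17 (-0.76), Rilpl1 (-0.75), Fam195a (-0.74) and Nfatc2 (-0.73). Per3 (-0.72) and Dbp (-0.69) stood close behind, at ranks 13252 and 13246 from the top. For Dbp the most like were Extl1 (0.85), Suds3 (0.83), Mrps26 (0.82), Snx24 (0.80) and Slc25a42 (0.80), and the least like RGD1564420 (-0.87), FSBP (-0.80), Nqo2 (-0.79), Lrrc66 (-0.79) and Brox (-0.76). These correlations describe 24 libraries from 12 rats, which share the rat, and carry no test.

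The other genes of the clock were read as lists by role. Over all loci tested in the thalamus, 20.9% were called lower and 14.5% higher. Of 13 further clock genes, mostly for transcription factors, 11 were tested in the thalamus, where 8 were called lower and 1 higher. The median log2 fold change of the 11 was -0.35. Those with the smallest p were Hlf, a PAR bZIP factor like Dbp (-0.55, adjusted p 0.000144), Rorb, an activator at ROR elements (-0.48, adjusted p 0.000596), Bhlhe41, a repressor at E-boxes (0.28, adjusted p 0.000961), and Npas2, which can stand in for Clock (-0.35, adjusted p 0.00155), all from limma with the Benjamini-Hochberg method. Hlf was 4861 to 5955 normalized counts in TBI thalamus and 6414 to 9367 in sham thalamus. Its groups did not overlap, as in 18.2% of all loci tested there. Calls of these listed genes were made with the deposited scaling only.

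In the cortex 12 of these genes were tested, and 3 were called higher and 3 lower, against 14.3% and 14.9% of all loci. The 4 with the smallest p were Bhlhe41 (0.27, adjusted p 0.00216), Timeless (0.37, adjusted p 0.00610), Rora (-0.38, adjusted p 0.0142) and Cipc (-0.26, adjusted p 0.0211), from the same limma fit. Tef, the third PAR bZIP gene, went up in the cortex (0.15, adjusted p 0.0433 in limma) and down in the thalamus (-0.14, adjusted p 0.0358). Its difference between the regions was -0.28 with an adjusted p of 0.0118, and that of Hlf -0.38 with an adjusted p of 0.0319 in limma. They were the 2 genes of this list called for that difference. Hlf was below sham in both regions, at -0.17 in the cortex (adjusted p 0.0654 in limma), whereas Tef had the signs of Dbp, above sham in the cortex and below in the thalamus.

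**Figure D5:**
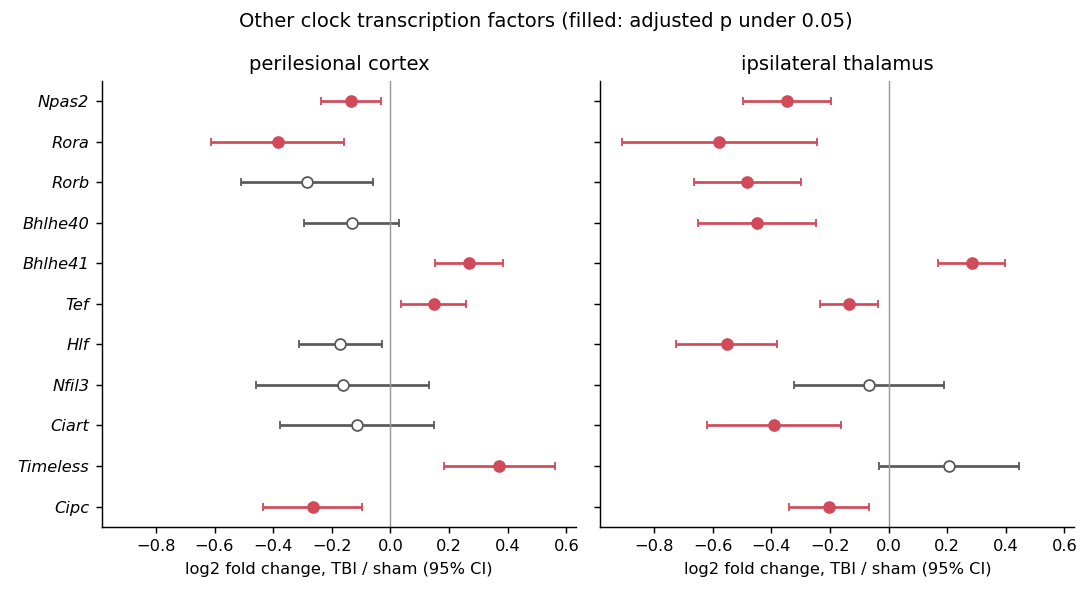
Log2 fold change of TBI over sham-operated rats (horizontal axis) with its 95% confidence interval for 11 further clock genes, in cortex (left) and thalamus (right). Filled points passed the adjusted p. In the thalamus 8 filled points lie below 0 and 1, Bhlhe41, above.

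The genes listed for kinases and for enzymes that add or remove ubiquitin on clock proteins were all tested. Of 12, 7 were called lower and none higher in the thalamus (median -0.17), and 3 lower and none higher in the cortex (median -0.10). Over all loci 20.9% were lower in the thalamus and 14.9% in the cortex. The 4 with the smallest p in the thalamus were Fbxw7 (-0.50), Usp2 (-0.21), Btrc (-0.17) and Fbxl21 (-0.27), and in the cortex the 3 were Fbxw7 (-0.48), Gsk3b (-0.24) and Btrc (-0.14). None of the 12 was called for the difference between the regions. Like those of the other lists, calls of these 12 genes were made with the deposited scaling only. With TMM scaling the number of all loci called lower in the thalamus fell from 3257 to 2357.

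Of 10 clock output and temperature genes, 9 were tested, and in the thalamus the largest changes were in a peptide signal and its receptor. Vip, a peptide that couples clock neurons and is also made by cortical interneurons, was 317 to 672 normalized counts in TBI thalamus (median 595) and 2561 to 3111 in sham thalamus (median 3006). The log2 fold change was -2.46, and that of its receptor gene Vipr2 was -1.06, at 700.5 to 881 against 1021 to 2298. Neither overlapped between the groups, as in 18.2% of all loci tested in the thalamus. There, 12 of 14 neuron markers and 4 of 6 thalamus identity genes were also called lower. Their part in the values of Vip and Vipr2 was not tested. In the cortex Vip was at -0.13 (adjusted p 0.254 in limma) and Vipr2 at 0.24 (adjusted p 0.0773). The differences between regions were -2.33 and -1.30, both called. The other called genes of the list in the thalamus were Nampt (0.31) and Noct (-0.26), and in the cortex Cirbp, a cold-inducible RNA-binding protein gene (0.24).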

How the data were processed

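The authors prepared strand-specific TruSeq libraries of poly(A) RNA, sequenced them on a NextSeq500, aligned them with TopHat 2.0.11 and Bowtie2 2.2.2 and quantified loci with Cufflinks 2.2.1, per the methods and the labels. They deposited 1 table of signal per locus and library, in which the fragment count of a locus was scaled by the size factor of its library; the methods name genome RGSC3.4 with the Ensembl annotation of Rnor_5.0, the labels Rnor_5.0, and the files no build; 99.97% to 99.99% of values were whole multiples of 1 fragment (tolerance 0.1). Loci without a gene name (15693, holding 1.90% to 2.23% of a library's values) were left out. Groups came from the labels.

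The 4 groups were compared by limma 3.58.1 (lmFit, eBayes with trend) in R 4.3.3 on log2(normalized count + 1) over all named loci with a mean of at least 10, adjusted after Benjamini and Hochberg and called under 0.05, since the deposited values are scaled. Relations across rats used Pearson's r and Spearman's rho of deviations from the group mean, with 100000 resamples (smallest p 1e-05), or exact enumeration within a group of 6. The same numbers were taken to mark the same rats in both regions. The deviations of a rat's 2 libraries correlated over loci with r from 0.00471 to 0.609 (median 0.208), above 0.1 in 10 of 12 rats. In 9 of 12 rats the cortex library correlated more with its own thalamus library than with any other of its group. Named were all members, up to 4 genes with the smallest p in each other list, and the 5 loci most and least like Arntl and Dbp (mean of at least 50 in each region). Alternatives were TMM and upper quartile scaling, no filter, a minimum mean of 50, pseudocounts 0.1 and 5, summed loci, 1 fit over 24 libraries, the rat as a block and leaving out each library, and, added after seeing the data, edgeR 4.0.16 on the recovered fragments. The members and lists were chosen with earlier results of these data known. Steps were tested on simulated data. Values of 1 listed clock transcription factor are not reported here.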

Additional observations from a re-analysis of the deposited data

Results flagged for a closer look

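In 5 of 40 combinations of a member and a group, 1 rat stood apart from the other 5 by more than the 95% critical value of Dixon's gap-to-range test; chance gives about 1 in 20. Sham rat 32 accounted for 3 of them: the lowest Arntl of the sham cortex (1506 normalized counts), the lowest Clock of the sham thalamus (687) and the highest Dbp of the sham thalamus (5407). TBI rat 45 accounted for the other 2, both in the thalamus: the highest Cry1 (728.5) and the lowest Cry2 (4855). That library also had the highest summed choroid plexus markers of its group, 260044 normalized counts, and the part of this in the 2 values was not tested.

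The TBI effect on Nr1d1 differed between thalamus and cortex by -0.48 on the log2 scale (limma interaction, Benjamini-Hochberg adjusted p = 0.0134). It was the only member called for that difference without a block for the rat.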

How the results depend on the processing

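Cry2 and Nr1d1 in the thalamus stayed called under all 10 alternatives and without each of 12 libraries, and so did the Nr1d1 difference between regions under its 10 alternatives and without each of 24. Without each library in turn, members called in the cortex numbered 0 to 3. Leaving out each rat in turn, relations with Arntl past 0.05 numbered 3 to 6 against 5. Those of Per1 with Fos and Fkbp5 numbered 0 to 2 against 0. With the replicate block for the rat, 2 members were called for the difference between regions, 8 for the regions of sham-operated rats and 7 for those of TBI rats; it changed no other call of a member. Without the low-value filter Nr1d1 was not called between the regions of sham-operated rats (adjusted p 0.0515 in limma). The hour of killing and 6 rats a group limit all values.

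Values near 0 that were not called changed sign. Cry1 in the thalamus was 0.037 with TMM, 0.029 with upper quartile scaling and 0.036 with edgeR and TMM. With edgeR and TMM the differences between regions were 0.0038 for Per2, 0.00048 for Per3 and 0.0038 for Clock. Clock between the regions of sham-operated rats was -0.026 with TMM, -0.0077 with upper quartile scaling and -0.022 with edgeR and TMM, and Cry2 in TBI rats -0.0030 and -0.0069 with TMM and with edgeR and TMM.

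Without each library in turn, TBI against sham ran from -0.052 to 0.20 for Per1 and -0.16 to 0.022 for Per2 in the cortex, and from -0.20 to 0.028 for Per1 and -0.047 to 0.033 for Cry1 in the thalamus. The difference between regions ran from -0.14 to 0.069 for Per2, -0.13 to 0.039 for Per3, -0.0039 to 0.076 for Cry1, -0.0091 to 0.12 for Arntl, -0.12 to 0.025 for Clock and -0.017 to 0.085 for Nr1d2. Thalamus against cortex ran from -0.032 to 0.073 for Clock in sham-operated rats, and in TBI rats from -0.11 to 0.027 for Clock and -0.060 to 0.042 for Nr1d2. Without each rat, r between regions ran from -0.37 to 0.38 for Nr1d1. Against Arntl in the cortex it ran from -0.16 to 0.40 for Cry2, -0.24 to 0.20 for Clock and -0.22 to 0.36 for Nr1d1, and in the thalamus from -0.36 to 0.16 for Per1 and -0.053 to 0.45 for Clock. Fkbp5 against Per1 ran from -0.070 to 0.33 in the cortex and -0.22 to 0.15 in the thalamus.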

Other observations

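Activity-regulated and glucocorticoid-induced genes, which share inputs with Per1, were also read by limma with Benjamini-Hochberg adjustment. As a background, TBI cortex had 14.3% of all loci called higher and 14.9% lower. For TBI thalamus these shares were 14.5% and 20.9%. Of 11 activity-regulated genes, 2 were called lower in TBI cortex, Egr1 (-0.67, adjusted p 0.0110) and Npas4 (-0.92, adjusted p 0.0115), and none higher, with a median log2 fold change of -0.57. In the thalamus Arc (-1.24) and Nr4a1 (-0.66) were called lower and Egr2 (1.67, adjusted p 0.0155) higher, and Egr2 was the 1 gene of the list called for the difference between regions (2.35, adjusted p 0.0259). Of 8 glucocorticoid-induced genes, Mt2A, a metallothionein gene, and Pdk4 were called higher in both regions, at 1.20 and 0.44 for the cortex and 2.15 and 0.64 for the thalamus. Tsc22d3 (-0.45) and Cdkn1a (-0.32) were called lower in the thalamus. Fkbp5 was not called in either region, at 0.063 and 0.11. For the activity-regulated genes, 2 called lower of 11 is near the share of all loci in both regions.

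Of 8 oligodendrocyte markers, 3 were called higher in TBI cortex and 1 in TBI thalamus; of 6 precursor markers, 4 and 1; of 8 endothelial markers, 1 and 3. The share of all loci called higher was 14.3% for TBI cortex and 14.5% for TBI thalamus. Counts of 1 of 8 and 1 of 6 are near these shares. No choroid plexus or erythroid marker was called in either region. Of the lymphocyte markers that passed the filter, 1 of 3 in the cortex and 1 of 1 in the thalamus were called higher, in both cases Cd4, which rat macrophages also express. Of the thalamus identity genes, 4 of 6 were called lower in TBI thalamus and 3 of 5 higher in TBI cortex.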
